A study of Mus musculus with 12 samples.

Results

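Genes of the hypoxia response and of glycolysis were followed in Myc-CaP cells and Myc-CaP tumors exposed to YJ1206. The set holds 37 gene symbols, chosen by name, and these match 38 of the 40077 gene rows of the cell table and 38 of the 34508 rows of the tumor table, since Aldoa is listed under 2 identifiers. Myc-CaP is a mouse prostate carcinoma line from an animal that overexpresses human MYC in the prostate, so every library carries that background. YJ1206 is a proteolysis-targeting chimera that directs CDK12 and CDK13, kinases of RNA polymerase II elongation, to degradation. Cultures received DMSO or 1 μM YJ1206 for 24 hours, with 3 libraries in each group. Tumors were grown under the skin of male FVB mice that received vehicle or 100 mg/kg YJ1206 by mouth 3 times per week, again with 3 libraries in each group. All libraries thus derive from a single cell line, and a tumor library also holds RNA of the host's stroma, vessels and blood.

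Cells sense oxygen through HIF, a transcription factor whose alpha subunit is made all the time and is hydroxylated by EGLN prolyl hydroxylases when oxygen is present. The hydroxylated subunit is bound by VHL and degraded, whereas in low oxygen it pairs with ARNT and binds short motifs near genes for glucose uptake, glycolysis, blood vessel growth, mitophagy and collagen maturation. Glycolysis turns glucose into pyruvate, and LDHA and PDK1 direct pyruvate toward lactate and away from mitochondria. MYC drives many of the same glycolytic genes. HIF alpha protein and metabolite flux were not measured here, so the values below are transcript levels only.

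Libraries held 13936902 to 18519926 estimated counts in cells and 15391544 to 26928365 in tumors. The study's methods describe libraries depleted of ribosomal RNA, whereas the labels name polyA RNA for cells and total RNA for tumors. DMSO and YJ1206 cell libraries come from separate library number series, so treatment and library series cannot be told apart. In both tumor groups, library 3 lay between libraries 1 and 2 for nearly every gene that separated those libraries, 98.1% of 3552 genes in vehicle and 97.2% of 1467 genes in YJ1206 tumors, against 2.96% to 8.70% when library 1 or 2 was placed between the others. Whether library 3 is an independent tumor is therefore uncertain, and tumor results are given with and without it. Among 8 markers of prostate epithelium, Epcam was at or under 3 counts in every cell library, while the sum of the list was 512.5 to 587.0 TPM.

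In cultured cells, YJ1206 raised a group of hypoxia targets and glucose-handling genes and lowered Epas1, Aldoa and the phosphofructokinase genes. The largest rises were in Ankrd37, Aldoc, Pfkfb4, Kdm3a and Bnip3l, between 2.78-fold and 7.75-fold. The largest fall was in Epas1, to 0.285 of the DMSO level. Of the 38 rows, 32 had enough counts for a test and 27 of these passed an adjusted p-value of 0.05 (edgeR quasi-likelihood test, Benjamini-Hochberg), 20 higher and 7 lower. Most genes of these cells passed as well: 76.1% of the 11826 genes tested were called, 37.8% higher and 38.3% lower. The share of members called, 84.4%, was therefore near that of all genes. At least 2-fold changes were called for 7 members (21.9%), against 18.3% of all genes, and the groups did not overlap for 28 (87.5%), against 77.5%. The median log2 fold change was 0.31 for the members and -0.017 for all genes tested.

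**Figure D1:**
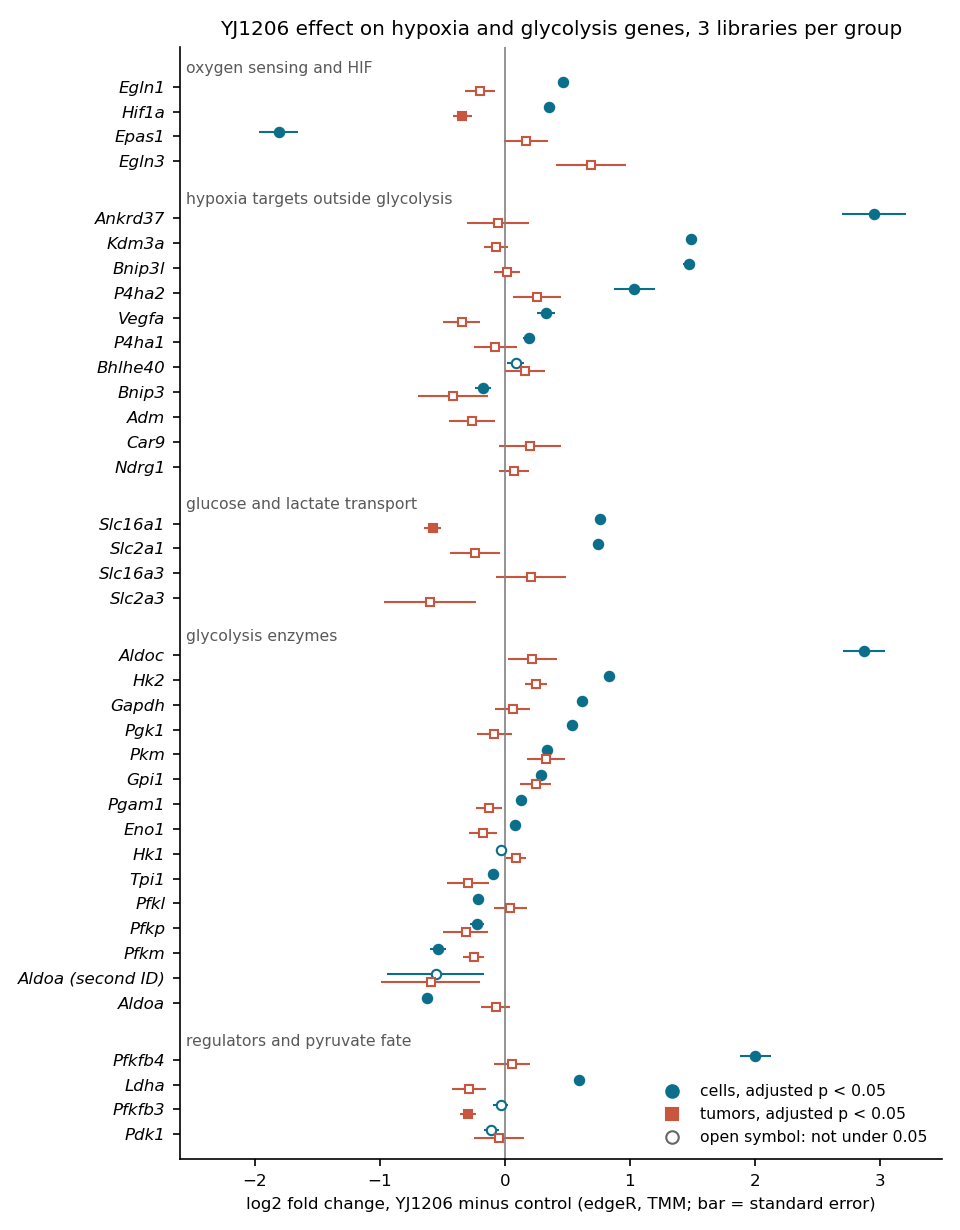
Log2 fold change of each member with YJ1206 in cells (circles) and tumors (squares), by role, with the standard error as a bar and 3 libraries per group. In cells Ankrd37, Aldoc and Pfkfb4 lie at 2.01 or above and Epas1 at -1.81, while all tumor values lie between -0.60 and 0.69, and Vegfa, P4ha1, Pkm, Pgam1 and Eno1 change sign in cells when scaled by TPM.

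The oxygen-sensing genes moved in opposite directions in cells with TMM scaling. Hif1a (ENSMUSG00000021109.13), the inducible alpha subunit present in most cells, stood at 231, 220.0 and 222 CPM (counts per 1000000 after TMM scaling) in the DMSO libraries and at 290.3, 290.2 and 279 CPM in the YJ1206 libraries. All YJ1206 values exceeded all DMSO values (log2 fold change 0.35 ± 0.03, adjusted p = 6.27e-11; errors of fold changes are standard errors, n = 3 libraries per group). In TPM, however, Hif1a was at 86.7, 82.4 and 84.3 with DMSO and 89.8, 88.5 and 83.9 with YJ1206, the groups overlapped and the rise did not pass (log2 difference 0.0488, adjusted p = 0.276, limma). Epas1 (ENSMUSG00000024140.10), which encodes the HIF2 alpha subunit, was at 10.5, 10.4 and 10.5 CPM with DMSO and 3.44, 2.11 and 3.38 CPM with YJ1206. The groups were far apart (log2 fold change -1.81 ± 0.15, adjusted p = 3.35e-11). Egln1 (ENSMUSG00000031987.6), the main oxygen-sensing prolyl hydroxylase and itself a HIF target, was at 90.5, 92.4 and 92.2 CPM with DMSO and 126, 128 and 128 CPM with YJ1206 (log2 fold change 0.47 ± 0.04, adjusted p = 6.9e-12). Its relative Egln3 had 0 counts in all 6 cell libraries, so a change was not detectable at this depth. GENCODE marks Hif1a, Pfkfb3 and Slc2a3 as overlapping another annotated locus, and reads of such neighbors could enter their counts.

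Among hypoxia targets outside glycolysis, 8 of 11 were tested in cells, 6 rose and 1 fell with TMM scaling. The shares called over all genes were 37.8% higher and 38.3% lower. Ankrd37 (ENSMUSG00000050914.16), an ankyrin repeat gene under HIF control, was barely detected with DMSO, at 0.616, 0.620 and 0.756 CPM, and stood at 5.15, 4.98 and 5.46 CPM with YJ1206, 7.75-fold higher (log2 fold change 2.95 ± 0.26, adjusted p = 5.08e-11). Kdm3a (ENSMUSG00000053470.13), a histone demethylase, was at 83.2, 81.3 and 80.9 CPM and 229, 227 and 233 CPM (log2 fold change 1.49 ± 0.04, adjusted p = 3.63e-23). Replicates of Kdm3a differed by a few CPM within a group, and the groups by well over 100. Bnip3l (ENSMUSG00000022051.15), a mitophagy receptor, was at 42.7, 41.1 and 39.7 CPM with DMSO and 112, 117 and 113 CPM with YJ1206 (log2 fold change 1.47 ± 0.04, adjusted p = 5.86e-21). Its close relative Bnip3 went the other way, from 36.9, 35.8 and 36.4 CPM to 34.3, 32.2 and 30.1 CPM (log2 fold change -0.17 ± 0.06, adjusted p = 0.0153). That small fall no longer passed when YJ1206 library 3 was left out (log2 fold change -0.13, adjusted p = 0.0809) or with DESeq2 (log2 fold change -0.16, adjusted p = 0.0623).

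The collagen prolyl hydroxylase genes P4ha1 and P4ha2 both rose with TMM scaling, P4ha2 from 3.80, 4.70 and 4.03 CPM to 7.09, 7.62 and 11.1 CPM (log2 fold change 1.04 ± 0.17, adjusted p = 2.91e-06) and P4ha1 from 63.6 ± 1.94 to 72.7 ± 0.997 CPM (mean ± SD, log2 fold change 0.19 ± 0.04, adjusted p = 0.00039), though P4ha1 did not pass with total counts (0.00611, adjusted p = 0.906) and was lower, at -0.10, on the TPM scale. Vegfa, the main angiogenic ligand, rose from 23.1, 26.2 and 25.0 CPM to 30.7, 31.8 and 31.0 CPM with TMM scaling (log2 fold change 0.33 ± 0.07, adjusted p = 0.000126), did not pass with total counts (0.144, adjusted p = 0.0634), and was lower by 0.19 on the log2(TPM + 1) scale without passing the test (adjusted p = 0.181, limma). The number of estimated counts per TPM, which follows the length of the transcripts to which reads were assigned, rose for Vegfa by 0.241 on the log2 scale, and 93.6% of genes moved by less. Bhlhe40, a circadian and hypoxia-responsive repressor, did not pass with TMM scaling (log2 fold change 0.09, adjusted p = 0.232), with a sign that turned negative under total counts and TPM. With TPM it passed as lower (log2 difference -0.26, adjusted p = 0.0114, limma). Car9 (carbonic anhydrase) had 5 to 18 counts per cell library, Adm (adrenomedullin, a vasodilator peptide) 2 to 5 and Ndrg1 (a stress-responsive gene) 0 or 1. These 3 were removed by the filter on low counts, and with no filter they were tested and not called.

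Sequence upstream of the members was examined for the core of the HIF motif. In the 250 bases before the most upstream annotated start (RefSeq, GRCm38.p6), ACGTG or GCGTG on either strand was present for 26 of the 32 members with a sequence, 81.2%, against 38.6% of 27025 promoters. ACGTG alone was found in 53.1% of the members and 16.5% of all promoters, and GCGTG alone in 53.1% and 28.3%. The palindrome CACGTG, which contains ACGTG on both strands and is also the letters bound by MYC, was found in 15.6% and 6.04%. Many members were chosen as known HIF or MYC targets, so these shares are not independent of the choice. By direction in cells, 16 of 19 promoters of members called higher, 4 of 6 of those called lower and 2 of 3 of those not called held a match. A match is a string of letters in the window and not a measured binding site. The sequences of the 4 members with the largest rises and of the 2 with the largest falls that have a promoter sequence are shown 5′ to 3′, with the motif in capitals. Their positions are chr8:45999851-46000100 (minus strand) for Ankrd37, chr11:78322823-78323072 (plus) for Aldoc, chr9:108991652-108991901 (plus) for Pfkfb4, chr6:71632918-71633167 (minus) for Kdm3a, chr7:126800448-126800697 (minus) for Aldoa and chr15:98092339-98092588 (plus) for Pfkm.
Ankrd37: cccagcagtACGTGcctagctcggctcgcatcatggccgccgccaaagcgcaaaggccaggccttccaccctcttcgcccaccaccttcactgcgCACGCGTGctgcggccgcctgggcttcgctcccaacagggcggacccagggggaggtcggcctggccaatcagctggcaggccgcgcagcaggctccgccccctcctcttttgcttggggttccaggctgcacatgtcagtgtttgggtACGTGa
Aldoc: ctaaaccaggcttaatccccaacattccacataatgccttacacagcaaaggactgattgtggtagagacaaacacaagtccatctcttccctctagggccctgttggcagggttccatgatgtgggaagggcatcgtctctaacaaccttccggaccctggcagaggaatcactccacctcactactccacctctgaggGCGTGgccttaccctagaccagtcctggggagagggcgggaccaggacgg
Pfkfb4: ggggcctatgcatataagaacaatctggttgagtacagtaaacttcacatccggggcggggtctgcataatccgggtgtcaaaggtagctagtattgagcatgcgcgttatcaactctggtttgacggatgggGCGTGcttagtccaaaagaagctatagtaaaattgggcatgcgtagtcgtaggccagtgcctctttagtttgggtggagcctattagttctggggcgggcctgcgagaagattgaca
Kdm3a: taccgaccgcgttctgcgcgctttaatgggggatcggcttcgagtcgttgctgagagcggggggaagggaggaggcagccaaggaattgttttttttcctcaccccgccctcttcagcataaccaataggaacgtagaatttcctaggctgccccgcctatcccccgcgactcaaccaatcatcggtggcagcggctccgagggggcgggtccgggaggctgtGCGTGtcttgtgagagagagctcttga
Aldoa: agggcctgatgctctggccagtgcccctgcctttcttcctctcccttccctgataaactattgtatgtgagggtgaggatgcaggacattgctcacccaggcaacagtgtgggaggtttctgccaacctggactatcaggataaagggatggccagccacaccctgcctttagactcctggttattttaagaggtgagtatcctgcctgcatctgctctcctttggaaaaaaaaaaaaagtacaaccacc
Pfkm: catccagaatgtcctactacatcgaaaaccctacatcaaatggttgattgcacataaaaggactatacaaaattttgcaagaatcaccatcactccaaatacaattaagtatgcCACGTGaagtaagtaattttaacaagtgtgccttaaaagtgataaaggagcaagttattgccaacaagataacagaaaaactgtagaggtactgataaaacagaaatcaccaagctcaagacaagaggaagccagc
Ankrd37, the member with the largest rise, held 4 matches, the nearest starting 6 bases before the start site. Aldoc, Pfkfb4 and Kdm3a held 1 each, at 50, 117 and 27 bases before the start. Of the genes that fell, Aldoa held none in this window, and Pfkm held a CACGTG palindrome, counted once on each strand, at 136 and 135 bases before the start. These starts are those of RefSeq. In GENCODE the minus-strand genes Ankrd37 and Aldoa begin further upstream, at 46005707 and 126800751, so both windows lie inside the annotated genes. Kdm3a (71632990), Aldoc (78322968) and Pfkfb4 (108991778) begin within their windows in GENCODE, upstream of their matches. Those matches therefore also lie inside the annotated genes. Pfkm begins at 98092589, directly after its window. Which start these cells use was not tested.

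Glucose and lactate carriers rose together in cells. Slc2a1 (ENSMUSG00000028645.11), which encodes the glucose transporter GLUT1, was at 55.5, 58.5 and 61.2 CPM with DMSO and 95.8, 95.9 and 103 CPM with YJ1206 (log2 fold change 0.75 ± 0.05, adjusted p = 3.01e-14). Slc16a1 (ENSMUSG00000032902.1), which encodes the lactate carrier MCT1, was at 311, 315 and 315 CPM and 529, 528 and 540.1 CPM (log2 fold change 0.76 ± 0.03, adjusted p = 7.12e-20). Neither pair of groups overlapped. The hypoxia-linked isoforms were almost silent in culture: Slc2a3 (GLUT3) and Slc16a3 (MCT4) had at most 1 count in any cell library, at or under the floor of 3 counts, and no change was detectable at this depth.

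**Figure D2:**
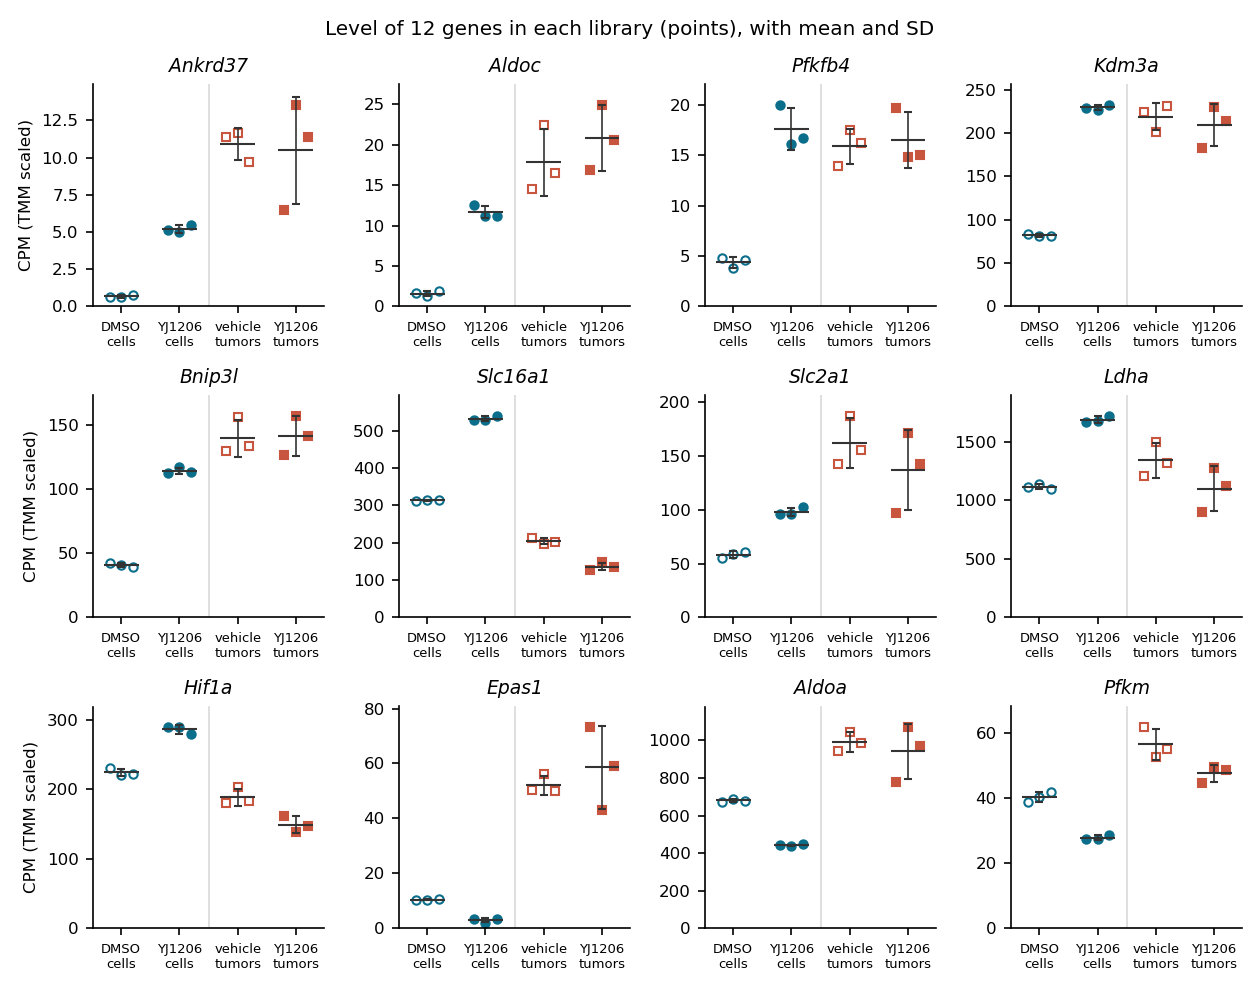
CPM of 12 members in each of the 12 libraries (points), with the mean as a line and the SD as a bar; cells are circles, tumors squares, and open symbols the controls. In cells the groups are apart for all 12 genes, in tumors only for Slc16a1, Hif1a and Pfkm, and tumor and cell tables were scaled separately.

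Steps of glycolysis moved in both directions in cells, with 8 of the 14 enzyme genes called higher and 5 lower with TMM scaling. Of all genes tested, 37.8% were called higher and 38.3% lower. Pgam1, Eno1 and Pkm, among the genes called higher, turned negative with TPM. At the first step, Hk2 (ENSMUSG00000000628.10), the inducible hexokinase, was at 158, 161 and 161 CPM with DMSO and 285, 289.8 and 282 CPM with YJ1206 (log2 fold change 0.84 ± 0.03, adjusted p = 5.75e-19), while Hk1, the constitutive form, was at 93.4, 101 and 98.9 CPM and 98.0, 93.4 and 95.7 CPM and did not pass with TMM scaling (log2 fold change -0.03 ± 0.04, adjusted p = 0.537). Gpi1, which converts glucose phosphate to fructose phosphate, went from 312 ± 4.13 to 382 ± 10.1 CPM (log2 fold change 0.29 ± 0.03, adjusted p = 5.37e-10). All genes of phosphofructokinase, the committed step, fell. Pfkm (ENSMUSG00000033065.14) was at 38.7, 40.3 and 42.0 CPM with DMSO and 27.3, 27.5 and 28.7 CPM with YJ1206 (log2 fold change -0.54 ± 0.06, adjusted p = 1.48e-08), and Pfkl and Pfkp fell by less, with log2 fold changes of -0.22 (adjusted p = 4.66e-05) and -0.22 (adjusted p = 0.0006).

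At the aldolase step the paralogs diverged. Aldoa (ENSMUSG00000030695.16), the abundant form, fell from 673, 691 and 678 CPM to 441, 438 and 446 CPM (log2 fold change -0.62 ± 0.02, adjusted p = 2.02e-18). Aldoc (ENSMUSG00000017390.15), the brain-type form, rose from 1.64, 1.24 and 1.86 CPM to 12.6, 11.2 and 11.2 CPM (log2 fold change 2.88 ± 0.17, adjusted p = 9.51e-15), 7.36-fold, from a low level. The second Aldoa identifier (ENSMUSG00000114515.2), an annotated locus that ends next to the first on the same strand, held 1.44, 0.671 and 1.61 CPM with DMSO and 1.07, 0.906 and 0.538 CPM with YJ1206, with overlapping groups.

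Below aldolase, with TMM scaling, Gapdh and Pgk1 rose by amounts near that of the Aldoa fall, and the other changes were smaller. Tpi1, the triose phosphate isomerase, was at 493, 489.8 and 481 CPM with DMSO and 456, 458 and 456 CPM with YJ1206, a narrow but complete separation (log2 fold change -0.09 ± 0.03, adjusted p = 0.00139). Gapdh, which oxidizes glyceraldehyde phosphate and often serves as a reference gene, was at 1137, 1181 and 1119.5 CPM and 1807, 1679 and 1795 CPM (log2 fold change 0.62 ± 0.03, adjusted p = 6.99e-18). Pgk1, the first ATP-producing step, was at 1197, 1163 and 1137 CPM and 1658, 1688 and 1723 CPM (log2 fold change 0.54 ± 0.02, adjusted p = 1.23e-17). Pgam1, Eno1 and Pkm, which carry out the last steps to pyruvate, were called higher with TMM scaling at log2 fold changes of 0.13, 0.08 and 0.34, and each turned negative with TPM. Eno1 is further uncertain because Eno1b, a near-identical copy, received more counts than Eno1 itself. In cells Eno1b stood at 953 ± 11.2 CPM with DMSO and 1040.0 ± 42.7 CPM with YJ1206, against 717 ± 20.8 to 760.1 ± 10.8 CPM for Eno1, and their sum had a log2 ratio of 0.11.

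Of the 4 regulators and genes of pyruvate fate, Pfkfb4 and Ldha were called higher and none was called lower with TMM scaling. Over all genes tested in cells the shares were 37.8% higher and 38.3% lower. Pfkfb4 (ENSMUSG00000025648.18), a bifunctional enzyme that sets the level of the phosphofructokinase activator fructose bisphosphate, was at 4.77, 3.77 and 4.64 CPM with DMSO and 20.0, 16.2 and 16.8 CPM with YJ1206, 4.02-fold higher (log2 fold change 2.01 ± 0.12, adjusted p = 3.69e-14). Its relative Pfkfb3 was at 41.4, 46.7 and 45.7 CPM and 43.9, 45.3 and 41.7 CPM, with overlapping groups (log2 fold change -0.03 ± 0.06, adjusted p = 0.631). Ldha (ENSMUSG00000063229.15), the lactate dehydrogenase subunit of fermenting cells, was at 1110.1, 1139.5 and 1099 CPM and 1665, 1677 and 1721 CPM (log2 fold change 0.60 ± 0.02, adjusted p = 4.66e-19). Pdk1, which shuts off pyruvate dehydrogenase and is a classical HIF target, did not pass with TMM scaling (log2 fold change -0.11, adjusted p = 0.11) although its groups did not overlap.

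The direction of the smaller changes in cells depended on how libraries were scaled. Against the -0.017 of TMM, the median log2 difference of all genes was -0.204 with total counts and -0.245 with TPM. Members called higher and lower numbered 20 and 7 with TMM, 16 and 12 with total counts and 14 and 13 with TPM, or 74.1%, 57.1% and 51.9% higher. The same share over all genes called was 49.7%, 36.1% and 29.2%. Calls with an unchanged direction under the 3 scalings numbered 15 higher and 7 lower, although Hif1a, among the 15, did not pass with TPM. Those that turned were P4ha1, Pkm and Vegfa with TPM, and Eno1 and Pgam1 with total counts as well as TPM. The calls of P4ha1 and Vegfa were already lost with total counts. Under either of these scalings Hk1, Pfkfb3 and Pdk1, which did not pass with TMM, passed as lower, Hk1 at -0.36, Pfkfb3 at -0.38 and Pdk1 at -0.38 with TPM (adjusted p = 0.000191, 0.00404 and 0.00222, limma). Bhlhe40 passed as lower with TPM only (-0.26, adjusted p = 0.0114, limma). The median of the members was 0.31, 0.124 and -0.057, above that of all genes in each case and closest to it with TPM.

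**Figure D3:**
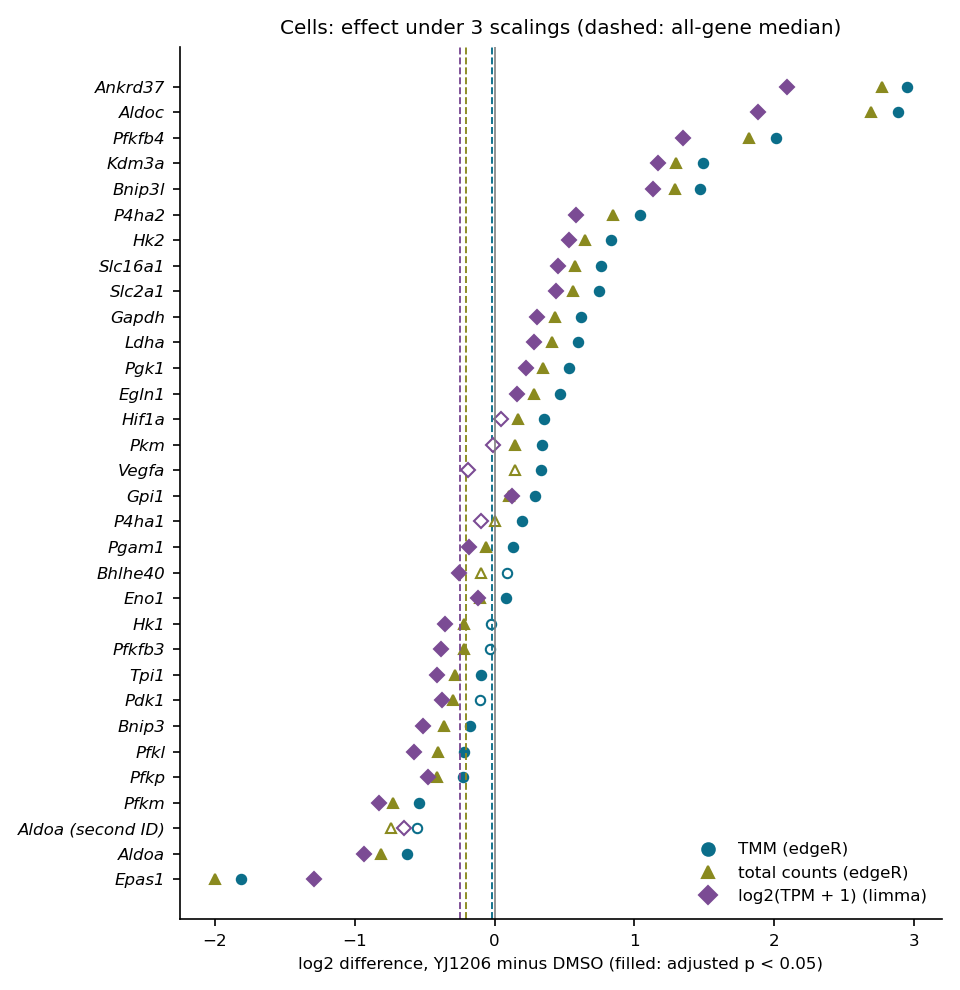
Log2 difference between YJ1206 and DMSO cells for the 32 rows tested, with TMM (circles), total counts (triangles) and log2(TPM + 1) (diamonds); filled symbols have an adjusted p under 0.05, and dashed lines mark the median of all genes for each scaling. The order of the genes is much the same, and P4ha1, Pkm, Vegfa, Eno1, Pgam1 and Bhlhe40 cross 0.

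Shares within pairs of related genes do not depend on library scaling and were compared on the TPM scale, which is per length. Hk2 made up 52.3% ± 0.678 (SD, n = 3) of hexokinase transcripts with DMSO and 67.2% ± 0.599 with YJ1206. Pfkfb4 went from 10.9% ± 1.57 to 34.5% ± 4.12 of the PFKFB pair, while the pair's sum was 20.3 ± 0.685 and 20.9 ± 1.24 TPM. Sums, unlike shares, do depend on scaling, and those given here are for TPM. With TMM, Pfkfb3 had a log2 fold change of -0.03 and Pfkfb4 of 2.01. Bnip3l went from 31.8% ± 1.86 to 60.1% ± 2.58 of the Bnip3 and Bnip3l sum, so the more abundant of these mitophagy genes differed between the groups. Despite its large rise, Aldoc remained a minor form, at 0.164% ± 0.0354 of aldolase transcripts with DMSO and 1.68% ± 0.247 with YJ1206. The aldolase sum was 927 ± 16.9 TPM with DMSO and 493 ± 9.12 TPM with YJ1206, and the phosphofructokinase sum 122 ± 4.04 and 79.8 ± 2.99 TPM. Epas1 made up 3.70% ± 0.0795 of HIF alpha transcripts with DMSO and 0.845% ± 0.216 with YJ1206, while in tumors it made up 18.1% ± 0.115 with vehicle and 23.6% ± 3.44 with YJ1206, the opposite direction. No cell library of one group overlapped the other group in any of these shares. With 3 libraries per group an exact permutation test of a single value cannot go below p = 0.1, so no p is given for them.

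**Figure D4:**
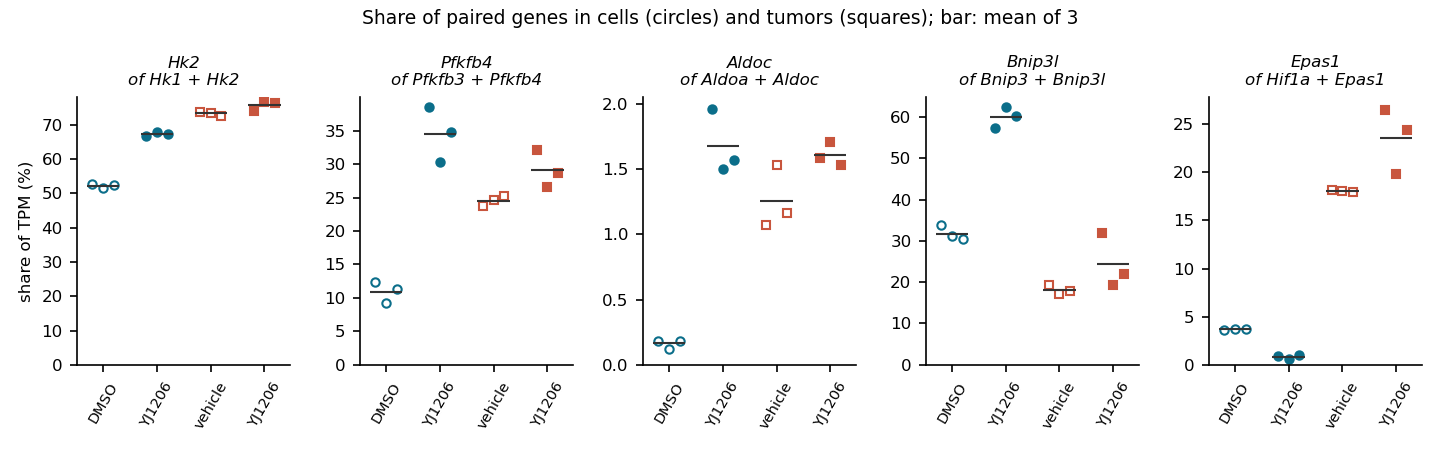
Share of TPM, in percent, that 1 gene holds within a pair of related genes, for each library of cells (circles) and tumors (squares), with the mean of 3 as a line. In cells the groups are apart in every panel, and in tumors in all but the Aldoc panel; the Epas1 share is lower with YJ1206 in cells and higher with YJ1206 in tumors.

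Genes around the members moved both ways in cells, as did all genes tested (37.8% called higher and 38.3% lower with TMM). Among 9 regulators of HIF, 8 were tested, 3 rose and 4 fell. Vhl, the ubiquitin ligase subunit that binds hydroxylated HIF alpha, rose (21.0 ± 1.12 to 42.9 ± 4.17 CPM, log2 fold change 1.03, adjusted p = 6.84e-13), as did Cited2, which competes with HIF for coactivators (90.1 ± 2.29 to 159 ± 12.7 CPM, log2 fold change 0.82, adjusted p = 3.87e-15). Hif3a, an alpha subunit with inhibitory forms, fell (30.6 ± 1.83 to 6.33 ± 0.358 CPM, log2 fold change -2.27, adjusted p = 8.46e-18), as did Hif1an, the asparagine hydroxylase of HIF alpha (74.0 ± 2.26 to 53.5 ± 3.66 CPM, log2 fold change -0.47, adjusted p = 3.97e-09). Of 40 other hypoxia targets, 28 were tested, 17 rose and 10 fell with TMM, against 10 and 11 with total counts and 8 and 11 with TPM. Ddit4, an inhibitor of mTORC1, had the largest rise of that list (4.75 ± 0.366 to 76.0 ± 3.22 CPM, log2 fold change 3.998, adjusted p = 3.79e-25), followed by the nuclear receptor Rora (6.53 ± 1.03 to 18.01 ± 1.44 CPM, log2 fold change 1.46, adjusted p = 6.74e-12). Gys1, the glycogen synthase, fell (30.7 ± 1.40 to 10.8 ± 0.102 CPM, log2 fold change -1.51, adjusted p = 2.49e-15), and so did the lysyl oxidase family gene Loxl2 (206 ± 1.91 to 76.5 ± 3.35 CPM, log2 fold change -1.43, adjusted p = 5.69e-22). In that list 9 genes, Lox, Stc2 and Igfbp3 among them, were at or under 3 counts in every cell library.

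Enzymes and carriers of glucose and pyruvate outside the set were tested for 17 of 31 genes, with 6 higher and 9 lower with TMM and 2 and 10 with TPM. Galm, which interconverts forms of glucose and galactose, rose (6.37 ± 1.24 to 26.6 ± 1.45 CPM, log2 fold change 2.06, adjusted p = 1.23e-15), and so did Bpgm, which makes bisphosphoglycerate (34.5 ± 3.74 to 68.5 ± 0.469 CPM, log2 fold change 0.99, adjusted p = 2.99e-14). Adpgk, an ADP-dependent glucokinase, fell (75.7 ± 2.50 to 28.9 ± 0.437 CPM, log2 fold change -1.39, adjusted p = 1.04e-18), and so did the monocarboxylate carrier gene Slc16a6 (18.7 ± 0.712 to 8.07 ± 0.762 CPM, log2 fold change -1.21, adjusted p = 2.33e-11). Ldhb, the other lactate dehydrogenase subunit, was at or under 3 counts in every cell library. All 31 genes of pyruvate entry and the citric acid cycle were tested, and 17 were higher and 11 lower with TMM, 10 and 15 with total counts and 10 and 19 with TPM. Suclg1, a succinate-CoA ligase subunit, rose most (84.5 ± 2.06 to 204 ± 4.41 CPM, log2 fold change 1.27, adjusted p = 2.6e-21) and Ogdh, of the oxoglutarate dehydrogenase complex, fell most (171 ± 3.13 to 97.9 ± 0.793 CPM, log2 fold change -0.81, adjusted p = 4.43e-17). In the same list Pdhx of the pyruvate dehydrogenase complex rose (46.3 ± 0.862 to 85.9 ± 0.744 CPM, log2 fold change 0.89, adjusted p = 4.73e-16) and Sdhb of succinate dehydrogenase fell (122 ± 3.54 to 70.2 ± 2.29 CPM, log2 fold change -0.80, adjusted p = 5.3e-16). Of 14 pentose phosphate and branch genes tested, 6 were higher and 5 lower with TMM, 3 and 9 with total counts and 3 and 8 with TPM. Rpia, the ribose phosphate isomerase, rose (26.2 ± 0.517 to 103 ± 2.64 CPM, log2 fold change 1.98, adjusted p = 8.49e-23), while G6pdx, the entry enzyme of the pentose phosphate route, fell (147 ± 5.50 to 75.9 ± 3.74 CPM, log2 fold change -0.96, adjusted p = 2.91e-17). Psat1 of serine synthesis rose (456 ± 4.84 to 683 ± 5.01 CPM, log2 fold change 0.58, adjusted p = 6.01e-18) and the transketolase gene Tkt fell (226 ± 3.86 to 174 ± 2.89 CPM, log2 fold change -0.37, adjusted p = 4.91e-11).

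In tumors few members were called as different between the treatment groups. All 38 rows were tested and 3 were called, Slc16a1, Hif1a and Pfkfb3, all lower with YJ1206 (edgeR, Benjamini-Hochberg). That is 7.89% of the rows, against 26.8% of the 15558 genes tested (11.9% higher and 14.9% lower). The groups did not overlap for 5 rows, all lower, or 13.2%, against 44.6% of all genes (22.8% lower and 21.8% higher). No member changed by 2-fold with a call, against 5.1% of all genes. The median log2 fold change was -0.07 for the members and 0.009 for all genes. The low share of calls does not by itself show small differences, because the members varied more than other genes among YJ1206 tumors. On the log2 CPM scale the median SD there was 0.26 for the members and 0.101 for all genes. In vehicle tumors it was 0.129 and 0.133. The number of members called also changed when single libraries were left out. In these bulk samples, fewer cells of a type and less RNA per cell cannot be told apart.

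Slc16a1, the lactate carrier gene that rose in cells, was at 211, 195 and 203 CPM in vehicle tumors and 126, 147 and 135 CPM in YJ1206 tumors (log2 fold change -0.58 ± 0.07, adjusted p = 0.00214). Hif1a was at 179.7, 203 and 184 CPM and 162, 138 and 148 CPM (log2 fold change -0.34 ± 0.08, adjusted p = 0.0183). Pfkfb3 was at 54.2, 54.2 and 53.3 CPM and 41.8, 45.2 and 45.2 CPM (log2 fold change -0.29 ± 0.06, adjusted p = 0.0151). For these 3 genes every YJ1206 tumor lay below every vehicle tumor. Slc16a1 passed with any single tumor library left out, whereas Hif1a and Pfkfb3 lost the call in some of these fits, both of them without library 3 of either group (adjusted p = 0.0635 and 0.0757 for Hif1a, 0.0667 and 0.0548 for Pfkfb3). With libraries 1 and 2 of each group alone, no member was called by edgeR and 1 gene was called in the whole table. In that fit the same 3 members were the ones with an unadjusted p under 0.05, with log2 fold changes of -0.57 for Slc16a1, -0.35 for Hif1a and -0.32 for Pfkfb3.

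The 11 hypoxia targets outside glycolysis were expressed in tumors, and none passed with edgeR or DESeq2 (0 and 1 with an unadjusted p under 0.05). YJ1206 tumors differed among themselves in these genes. Vegfa was at 234, 233 and 236 CPM in vehicle tumors and 139, 217 and 197 CPM in YJ1206 tumors, with groups apart but a wide spread with YJ1206 (log2 fold change -0.35 ± 0.15, adjusted p = 0.127). It passed as lower with TPM (log2 difference -0.52, adjusted p = 0.0474, limma). Bnip3 was at 206, 279 and 232 CPM and 103, 245 and 190.3 CPM (log2 fold change -0.41 ± 0.28, adjusted p = 0.323), YJ1206 library 1 being far below the others. Ankrd37 was at 11.4, 11.7 and 9.69 CPM and 6.50, 13.6 and 11.4 CPM, with the same library lowest (log2 fold change -0.06 ± 0.25, adjusted p = 0.892). Egln3, undetected in cells, was at 3.11, 3.90 and 3.55 CPM and 3.60, 7.88 and 5.57 CPM (log2 fold change 0.69 ± 0.28, adjusted p = 0.109). Car9 was at 13.0, 9.45 and 11.2 CPM and 8.90, 17.5 and 12.2 CPM, and Adm at 5.63, 4.46 and 4.91 CPM and 3.28, 4.56 and 4.64 CPM, each with overlapping groups. Kdm3a, Bnip3l, P4ha1, P4ha2, Bhlhe40, Ndrg1, Egln1 and Epas1 also overlapped, with log2 fold changes of -0.20 (Egln1) to 0.26 (P4ha2) and adjusted p-values of 0.273 or more.

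The remaining carriers and the enzymes overlapped between the tumor groups, with 1 exception. Slc2a1 was at 143, 188 and 155 CPM in vehicle and 97.3, 172 and 143 CPM in YJ1206 tumors (log2 fold change -0.24 ± 0.20, adjusted p = 0.418), Slc2a3 at 1.26, 2.63 and 2.07 CPM and 0.819, 1.70 and 1.39 CPM, and Slc16a3 at 7.66, 10.6 and 9.50 CPM and 6.88, 15.2 and 9.95 CPM. With TPM the log2 difference of Slc2a1 was -0.54, also without a call. Its estimated counts per TPM rose by 0.209 on the log2 scale, and 96.8% of genes moved by less. Among the 15 enzyme rows none was called by edgeR or DESeq2, 2 had an unadjusted p under 0.05 with edgeR and 3 with DESeq2, and log2 fold changes ran from -0.59 (the second Aldoa identifier) and -0.31 (Pfkp) to 0.33 (Pkm). Pfkm was the exception, at 62.0, 52.7 and 55.0 CPM and 44.6, 49.6 and 48.7 CPM with groups apart (log2 fold change -0.25 ± 0.08, adjusted p = 0.0664). Hk2 came closest to a call among genes with a higher mean, at 469, 504 and 472 CPM and 503, 630.0 and 587 CPM (log2 fold change 0.25 ± 0.09, adjusted p = 0.0715). Aldoa (-0.07), Aldoc (0.22), Gapdh (0.06), Pgk1 (-0.08), Pgam1 (-0.13), Eno1 (-0.17), Tpi1 (-0.29), Gpi1 (0.25), Hk1 (0.09) and Pfkl (0.05) are given as log2 fold changes with no call, of which Gapdh and Pfkl turned negative with TPM. Among the regulators Ldha was at 1206, 1499 and 1318 CPM and 899, 1276 and 1122 CPM (log2 fold change -0.29 ± 0.14, adjusted p = 0.159), while Pfkfb4 (0.06, negative with TPM) and Pdk1 (-0.05) lay near 0.

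Spread among YJ1206 tumors was larger for these genes than for the genome. The median SD of log2(CPM + 1) over the members was 0.129 in vehicle and 0.26 in YJ1206 tumors, while for all genes it was 0.133 and 0.101. YJ1206 library 1 was the lowest of the 6 tumors for 24 of the 38 rows (63.2%, against 20.3% of all genes), and YJ1206 library 2 the highest for 18 (47.4%, against 15.6%). Compared with the vehicle mean, the median member stood at -0.35 on the log2 scale in YJ1206 library 1, 0.11 in library 2 and -0.04 in library 3, while the median of all genes was 0.003, 0.004 and -0.001. Library 3 was the middle value of its group for 36 of 38 rows with YJ1206 and 31 of 38 with vehicle. Without YJ1206 library 1, 6 members were called, with Hk2 (log2 fold change 0.33, adjusted p = 0.0198), Gpi1 (0.36, adjusted p = 0.0397) and Egln3 (0.93, adjusted p = 0.0303) higher beside the 3 lower genes. Without vehicle library 2, 7 were called, with Pkm (0.52, adjusted p = 0.00551), Bhlhe40 (0.35, adjusted p = 0.0389) and Hk2 (0.29, adjusted p = 0.0405) higher and Pfkm (-0.30, adjusted p = 0.0263) lower beside the same 3. The share of all genes called in these reduced fits is not given here, so the added calls cannot be taken as particular to the members.

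**Figure D5:**
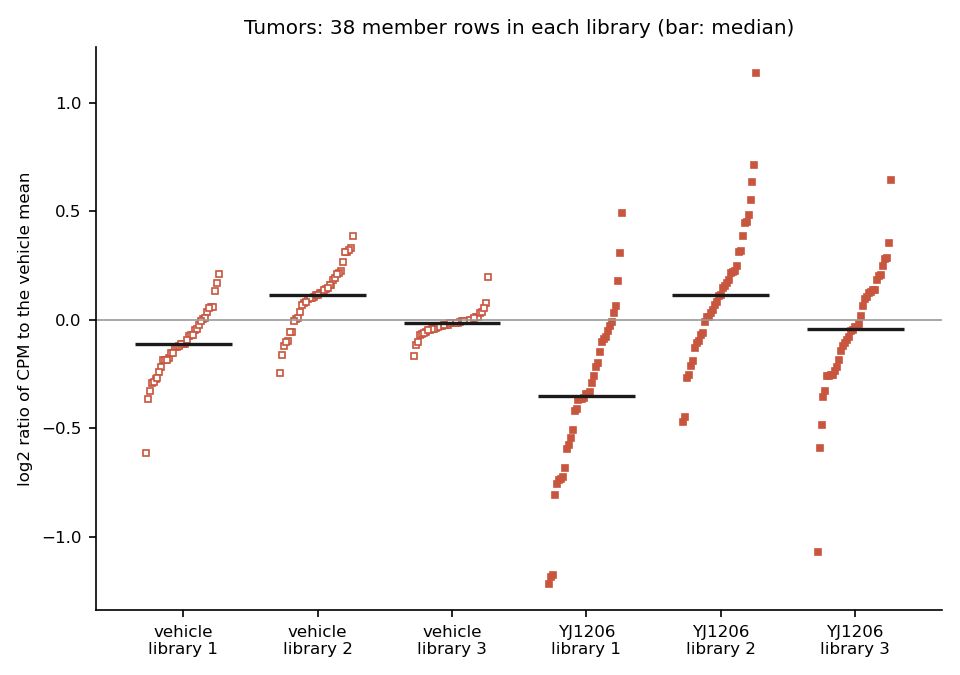
Log2 ratio of CPM (with 0.1 added) to the mean of the 3 vehicle tumors for the 38 member rows in each tumor library, sorted within a library, with the median as a bar. Members of YJ1206 library 1 sit mostly below 0 (median -0.35) and those of YJ1206 library 2 mostly above (0.11), with library 3 between them.

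Host tissue also differed between the tumor libraries. Summed TPM of 6 red blood cell markers was 4563, 5823 and 5011 in vehicle tumors and 1403, 3656 and 2820.0 in YJ1206 tumors, lowest in the library where most members were lowest, though none of the 5 markers tested was called with edgeR (4 at an unadjusted p under 0.05) and 1 was with DESeq2. Skeletal muscle markers, 12 in all, summed to 982, 108 and 633 TPM in vehicle and 66.0, 75.5 and 79.9 TPM in YJ1206 tumors, and all 9 tested were called lower. Muscle expresses Pfkm and Aldoa strongly. Within the vehicle group Pfkm had the order of the muscle sum, highest in library 1 and lowest in library 2, whereas Aldoa had the reverse order, at 942, 1045 and 985 CPM. In YJ1206 tumors the muscle sum was highest in library 3, while Pfkm (49.6 CPM) and Aldoa (1073 CPM) were both highest in library 2. These orders rest on 3 libraries per group, and a link to muscle content was not tested. Fibroblast markers were between 369 and 862 TPM with vehicle and between 254 and 511 TPM with YJ1206, endothelial markers between 81.5 and 83.0 and between 93.0 and 99.0, and prostate epithelial markers between 428 and 560 and between 689 and 769, with 1 fibroblast marker of 10 called lower, 1 endothelial marker of 10 higher and 1 of 6 prostate markers higher. Macrophage and monocyte markers overlapped in their sum, 361 to 562 TPM with vehicle and 411 to 529 TPM with YJ1206, and 4 of 10 were called higher. Of the neutrophil markers 1 of 5 was called lower (sums of 21.3 to 28.7 and 12.5 to 18.1 TPM), of the T cell markers 1 of 4 higher (10.3 to 13.2 and 10.8 to 13.0 TPM) and of the adipocyte markers 1 of 3 higher (73.6 to 77.6 and 92.6 to 114 TPM). The part of these shifts in the members' values was not tested.

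Around the members, 31 of the 116 listed genes tested in tumors were called, 26.7%, which is near the 26.8% of all genes. Of the HIF regulators Egln2, a prolyl hydroxylase, was higher (51.8 ± 11.7 to 80.4 ± 2.14 CPM, log2 fold change 0.63, adjusted p = 0.0193) and Cited2 lower (72.5 ± 11.7 to 48.8 ± 4.25 CPM, log2 fold change -0.57, adjusted p = 0.015), 2 of 8 tested. Of 39 other hypoxia targets tested, 3 were higher and 6 lower, with Igfbp3 (100.5 ± 23.2 to 146 ± 9.81 CPM, log2 fold change 0.54, adjusted p = 0.0402), a growth factor binding protein gene, and Plod1 (57.4 ± 6.07 to 83.4 ± 10.9 CPM, log2 fold change 0.54, adjusted p = 0.0152), a lysyl hydroxylase gene, highest, and the transferrin receptor gene Tfrc (188 ± 3.45 to 129 ± 11.4 CPM, log2 fold change -0.55, adjusted p = 0.0029) and the corepressor gene Rcor2 (97.8 ± 13.8 to 66.9 ± 12.2 CPM, log2 fold change -0.55, adjusted p = 0.0369) lowest. Igfbp3 was at or under 3 counts in all cell libraries. Of 23 other glycolysis and lactate genes tested, 4 were higher and 1 lower. Bsg, the chaperone of the MCT1 and MCT4 carriers, rose in every YJ1206 tumor above every vehicle tumor (693 ± 92.8 to 1336 ± 71.1 CPM, log2 fold change 0.95, adjusted p = 0.00157), in the opposite direction to Slc16a1. Emb, the other such chaperone, also rose (164 ± 9.47 to 249 ± 29.1 CPM, log2 fold change 0.60, adjusted p = 0.00427), and Gpd2, of the glycerol phosphate shuttle, fell (102 ± 2.49 to 84.6 ± 3.89 CPM, log2 fold change -0.27, adjusted p = 0.014).

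Mitochondrial and branch genes of tumors split as well. Of 31 pyruvate and citric acid cycle genes, 3 were higher and 4 lower. Pcx, the pyruvate carboxylase, had the largest rise, from 58.6, 90.4 and 71.7 CPM to 207, 231 and 224 CPM (log2 fold change 1.58, adjusted p = 0.00113). Pdk2, another kinase of pyruvate dehydrogenase, rose (41.1 ± 4.59 to 60.4 ± 2.51 CPM, log2 fold change 0.55, adjusted p = 0.00579), and Idh3a (138 ± 3.93 to 111 ± 4.20 CPM, log2 fold change -0.31, adjusted p = 0.00719) and Dld (168 ± 8.57 to 138 ± 11.4 CPM, log2 fold change -0.29, adjusted p = 0.0282), subunits of citric acid cycle enzymes, fell. Among 15 pentose phosphate and branch genes, 3 were higher and 5 lower. Gfpt1, the entry enzyme of hexosamine synthesis, rose (228 ± 8.14 to 332 ± 3.59 CPM, log2 fold change 0.54, adjusted p = 0.00115), as did Pgls, the phosphogluconolactonase (29.9 ± 0.828 to 37.9 ± 4.59 CPM, log2 fold change 0.34, adjusted p = 0.0443). Psph (33.1 ± 5.65 to 18.2 ± 2.09 CPM, log2 fold change -0.86, adjusted p = 0.00678) and Psat1 (262 ± 67.4 to 164 ± 13.8 CPM, log2 fold change -0.68, adjusted p = 0.0294) of serine synthesis fell, although Psat1 had risen in cells. None of these list counts held with libraries 1 and 2 of each tumor group alone, where no listed gene passed (edgeR) and 16 of the 116 tested had an unadjusted p under 0.05. Only 1 of all genes tested passed in that fit, so it cannot decide whether the list results hold.

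Where the effects of YJ1206 differed between tumors and cells, those in tumors were mostly the lower ones. The difference of effects was tested as an interaction over all 12 libraries, and 19 of the 32 rows tested in both experiments passed (59.4%, against 59.7% of 11307 genes), 17 of them lower in tumors than in cells (53.1%, against 34.0%) and 2 higher (25.8% of all genes). With total counts in place of TMM the split was 13 and 5. The difference was -3.04 ± 0.37, adjusted p = 1.69e-05 for Ankrd37 (log2 effect in tumors minus that in cells, ± standard error, edgeR). It was -1.59 ± 0.11, adjusted p = 1.21e-07 for Kdm3a, and -1.37 ± 0.08, adjusted p = 2.81e-08 for Slc16a1, which rose in cells and fell in tumors. Hif1a likewise rose in cells with TMM scaling and fell in tumors, with a difference of -0.72 ± 0.08, adjusted p = 8.36e-06. Epas1 had the largest difference in the other direction, 1.95 ± 0.27, adjusted p = 5.41e-05, and Aldoa differed by 0.52 ± 0.12, adjusted p = 0.00344. The differences of Pkm (-0.04 ± 0.16, adjusted p = 0.913) and Gpi1 (-0.07 ± 0.14, adjusted p = 0.723) did not pass. With libraries 1 and 2 of each tumor group alone, 17 members passed, 15 lower and 2 higher in tumors. The shares of all genes above belong to the TMM fit over all 12 libraries. None is given for total counts or for this reduced fit, so those splits have no such comparison. Dose, route and exposure differ between the experiments, as do the labelled RNA type and the cell mixture, and these cannot be told apart from the growth setting.

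Levels in the untreated groups are set side by side, with the limit that the tables were normalized separately and list different gene sets. The labelled RNA type and the cell mixture differ too, and they cannot be told apart from the growth setting. In TPM, Bnip3 was 48.3 ± 2.47 in DMSO cells and 329 ± 47.9 in vehicle tumors (mean ± SD, n = 3), and Vegfa 20.4 ± 2.72 and 211 ± 20.8. Car9 was 0.486 ± 0.217 and 11.6 ± 1.48, Ankrd37 1.62 ± 0.207 and 24.0 ± 2.17, and P4ha2 3.91 ± 0.629 and 42.2 ± 8.48. All of these hypoxia targets stood higher in the tumor table. Among the glycolytic genes, the abundant Ldha, Pgk1 and Pkm stood closer together, Ldha at 1380.0 ± 22.5 and 1587 ± 155, Pgk1 at 1213 ± 26.8 and 1575 ± 94.5, and Pkm at 2727 ± 22.0 and 3286 ± 673. Others differed more, with Hk2 at 50.2 ± 0.537 and 177 ± 12.2, Pfkp at 32.5 ± 1.69 and 94.1 ± 2.20, Gpi1 at 265 ± 4.23 and 423 ± 27.6 and Aldoc at 1.52 ± 0.309 and 16.2 ± 3.60, while Pgam1 was lower in tumors, at 1502 ± 3.85 and 1145 ± 36.3. Also lower in tumors were Slc16a1 (122.5 ± 0.999 and 75.6 ± 4.51), Hif1a (84.5 ± 2.18 and 69.8 ± 2.98) and Tpi1 (599 ± 2.04 and 529.9 ± 42.0). After YJ1206, Ankrd37 stood at 10.1 ± 0.374 TPM in cells, Aldoc at 8.28 ± 1.27 against 16.2 ± 3.60 in vehicle tumors, and Pfkfb4 at 7.20 ± 0.895 against 7.59 ± 0.712. In each group the order of levels was led by Pkm and Gapdh, and the 15 enzyme rows together made up 9692 to 10100 TPM in cells and 9932 to 12950 TPM in tumors.

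Changes had little relation to gene length. Median gene span was 23.4 kb for the tested members and 21.7 kb for all genes in cells, and Spearman's rho of span and log2 fold change, across genes that share the same libraries, was -0.06 over the 32 members and -0.05 over all genes. In tumors it was 0.003 over the 38 members and -0.04 over all genes.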

How the data were processed

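For cells and for tumors, the deposited tables hold estimated counts and, separately, TPM values, which are scaled for transcript length within each library. The submitters' processing notes name kallisto, GRCm38 and mm10, with no versions. Coordinates and spans are from GENCODE vM21 (GRCm38), which matched 39867 of the 40077 identifiers of the cell table and 34326 of the 34508 of the tumor table. Promoters are from RefSeq GRCm38.p6.

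Samples were grouped by their labels. The study's methods state that replicates were independent; libraries of a group differed by more than counting noise (chi-square divided by the number of genes was 1.89 to 2.88 between cell libraries and 3.65 to 49.4 between tumor libraries), and same replicate numbers did not deviate together. Estimated counts were rounded to whole numbers, a step added to the planned count test. Genes were filtered with filterByExpr and tested with edgeR 4.0.16 (TMM, quasi-likelihood test, limma 3.58.1, R 4.3.3) within each experiment, and with an interaction term over all 12 libraries, which assumes 1 spread for both materials. Adjusted p-values are Benjamini-Hochberg over all genes tested, with a threshold of 0.05. The steps were tested on simulated counts. Alternatives were total counts, DESeq2 1.42.0, no count filter, the replicate block, limma on log2(TPM + 1), voom with weights per material, each library left out, and tumor libraries 1 and 2 alone.

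The members, the gene lists and the tests were chosen with earlier results of these data known. All 37 members are named. From each surrounding list, at most the 2 largest rises and 2 largest falls per experiment are named, among genes with an adjusted p under 0.05 and at least 5 CPM. A count of 3 or fewer was taken as the floor (0.111 to 0.215 CPM), for counting error only. Promoter windows were 250 bases long.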

Additional observations from a re-analysis of the deposited data

Results flagged for a closer look

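The effect of YJ1206 differed between tumors and cells by the interaction test for 19 members (edgeR, adjusted p under 0.05), and these are the results that stood out. The share is 59.4% of the members tested in both experiments, and 59.7% of all genes passed the same test. Values are the log2 effect in tumors minus the log2 effect in cells. Among hypoxia targets, the difference was -3.04 for Ankrd37, -1.59 for Kdm3a, -1.48 for Bnip3l, -0.81 for P4ha2 and -0.71 for Vegfa. Among carriers it was -1.37 for Slc16a1 and -1.02 for Slc2a1. Enzymes and regulators of glycolysis gave -2.69 for Aldoc, -1.98 for Pfkfb4, -0.91 for Ldha, -0.65 for Pgk1, -0.61 for Hk2, -0.59 for Gapdh, -0.29 for Pfkfb3 and -0.29 for Pgam1. For the oxygen-sensing genes Hif1a and Egln1 it was -0.72 and -0.69. The effect was higher in tumors for Aldoa, by 0.52, and for Epas1, by 1.95. The cell and tumor libraries differ in labelled RNA type, dose and host tissue, and the part of each in these differences was not tested.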

How the results depend on the processing

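The numbers of members called in cells (26 to 28) and of members with different effects in tumors and cells (17 to 22) stayed within 1.5 times the reported counts under every alternative run. In cells, Pgam1 turned to -0.0575 and Eno1 to -0.10 with total counts, and on the log2(TPM + 1) scale Pgam1 gave -0.18, Eno1 -0.12, P4ha1 -0.10, Vegfa -0.19 and Pkm -0.0129. Bhlhe40, not called with TMM or total counts, gave -0.10 with total counts and passed as lower with TPM (-0.26, adjusted p = 0.0114, limma). In tumors, genes without a call turned to -0.0695 (Ndrg1), -0.0735 (Pfkl), -0.0535 (Bnip3l), -0.0178 (Pfkfb4) and -0.0132 (Gapdh) with TPM, and to -0.00479 (Pfkl) and -0.012 (Bnip3l) with libraries 1 and 2 alone. Leaving out single libraries gave 1 to 7 called members in tumors, 0 to 3 HIF regulators, 1 to 13 other hypoxia targets, 2 to 10 other glycolysis and lactate genes, 3 to 9 pyruvate and citric acid cycle genes and 4 to 12 pentose phosphate and branch genes. With libraries 1 and 2 of each tumor group alone all these counts were 0 with edgeR, with 3 members and 16 of the 116 listed genes at an unadjusted p under 0.05. Because only 1 of all genes tested passed there, counts of 0 in that fit say little about the members or lists. The fit with TPM gave 5 other hypoxia targets in tumors.

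Leaving out single libraries also turned the sign of members that were not called. The lowest and highest values were -0.183 and 0.0394 for Aldoa, -0.291 and 0.188 for Ankrd37, -0.0676 and 0.108 for Bnip3l, -0.0894 and 0.404 for Car9, -0.0312 and 0.342 for Epas1, -0.0445 and 0.186 for Gapdh, -0.146 and 0.0156 for Kdm3a, -0.00116 and 0.145 for Ndrg1, -0.261 and 0.103 for P4ha1, -0.204 and 0.153 for Pdk1, -0.0833 and 0.00213 for Pfkfb3 (cells), -0.092 and 0.134 for Pfkfb4, -0.0713 and 0.183 for Pfkl, -0.222 and 0.0533 for Pgk1 and -0.139 and 0.442 for Slc16a3. Of 808 values for single genes under an alternative, 740 kept their direction and side of the threshold.

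Replicate numbers did not pair the samples (correlations of same-numbered deviations -0.03 to 0.003). With the replicate block, 27 members were called in cells and 4 in tumors, where Hif1a lost its call (adjusted p = 0.0516) and Ldha and Pkm gained one, and 5 pentose phosphate and branch genes were called in tumors. No sample correlated best with the sample of its own number. With no filter on low counts 37 rows were tested in cells and 27 called, and Egln3, with 0 counts, gave no test.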
